A study of Mus musculus with 6 samples.

Results

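Acsbg1 and 9 other genes of fatty acid activation and entry into oxidation were examined across 3 mouse melanoma lines, the parental B16-F1 and its derivatives B16-F1R2 and B16-F1R2L. The genes were Acsbg1, Acsl1, Acsl3, Acsl4, Acsl5, Acsl6, Slc27a1, Slc27a4, Cpt1a and Cd36, and each had 1 row among the 23951 genes of the deposited table. The set was chosen by the Acsbg1 values in B16-F1R2 and B16-F1, so for these 10 genes the difference between these lines is given as a description with no test. The other genes were taken with Acsbg1 by their symbols, as enzymes and carriers of the same step.

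B16-F1 is an established mouse melanoma line of low metastatic potential, bought from a cell bank. B16-F1R2 is its variant from a lymph node metastasis, and it came from another laboratory. B16-F1R2L was obtained from a lung metastasis that itself descended from a lymph node metastasis. All cells were untreated, each line was measured in 2 RNA sequencing libraries, and the origin of a line and its metastatic history cannot be told apart. Separate cultures are not stated for a line's libraries, so the p-values measure the spread between these libraries, which may be technical. Values are FPKM (fragments per kilobase and per 1000000 mapped), a length-scaled unit, which allow levels to be compared between genes of different length.

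Free long-chain fatty acids are chemically inert in the cell until an acyl-CoA synthetase joins them to coenzyme A. Acyl-CoA is then either built into membrane and storage lipids or passed to carnitine by CPT1 and oxidised in mitochondria. The ACSL enzymes are the main long-chain synthetases, the bubblegum enzyme ACSBG1 is best known from brain, adrenal gland and testis, and the SLC27A proteins couple fatty acid uptake to activation. CD36 is the fatty acid translocase of the cell surface in muscle, fat and macrophages.

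Depth was estimated at 12300000 to 14400000 reads per library, and FPKM summed to 596657 to 672794. Each depth is the median over 199 to 222 genes whose FPKM, taken as 1 read, implied a depth within a preset range. Between 10617 and 11168 genes reached 1 FPKM in a library. All 7 melanocyte markers reached 1 FPKM in at least 1 library, with summed FPKM from 14970 to 15010 for the parental line, 7909 to 8125 for B16-F1R2 and 8924 to 8933 for B16-F1R2L. A difference in the share of cells that express a gene and a difference in RNA per cell cannot be told apart in such bulk libraries.

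Acsbg1 went from near absence to the highest level of the 10 genes. Acsbg1 (ENSMUSG00000032281.5) lies on the minus strand of chr9:54452684-54509677 in the NCBIM37 mouse assembly, with 14 exons and 2880 bases in its longest annotated transcript. Upstream of it, RefSeq places a promoter window that is shown here because the gene had the largest difference of the 10. The second window belongs to Slc27a1, the other gene of the set with higher values in the metastatic lines, and of its 3 windows the one nearest the annotated start is shown. Each run holds the 250 bases before the transcription start, 5′ to 3′ on the strand of its gene, and was located in NCBIM37 by exact match. Capitals mark the CCAAT box on either strand and, in Acsbg1, the octamer ATTTGCAT that overlaps one of them.
Acsbg1, chr9:54509693-54509942, minus strand: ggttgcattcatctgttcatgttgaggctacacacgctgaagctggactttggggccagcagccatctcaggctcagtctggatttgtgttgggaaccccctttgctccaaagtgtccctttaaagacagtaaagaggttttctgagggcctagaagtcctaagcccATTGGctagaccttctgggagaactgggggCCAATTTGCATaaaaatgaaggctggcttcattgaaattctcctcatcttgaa
Slc27a1, chr8:74092520-74092769, plus strand: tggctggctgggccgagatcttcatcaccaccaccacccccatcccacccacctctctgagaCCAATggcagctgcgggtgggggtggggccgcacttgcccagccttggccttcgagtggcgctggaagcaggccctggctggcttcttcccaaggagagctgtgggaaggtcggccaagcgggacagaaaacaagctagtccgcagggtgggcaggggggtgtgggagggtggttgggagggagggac
The sequences are RefSeq windows from GRCm38.p6, and all 10 genes matched at least 1 of 15 windows. The window of Acsbg1 ended 15 bases from the annotated gene start. Its CCAAT boxes began 83 and 53 bases upstream of the RefSeq start, and its octamer began 50 bases upstream. Motifs were chosen after the Acsbg1 sequence had been seen. On both strands, CCAAT occurred in 33.8% of the 32851 mouse windows of this length and ATTTGCAT in 1.6%. TATAAA was in 12.4% of windows, CACGTG in 6.02% and CATGTG in 12.3%, and none of these was in either printed run. Another Slc27a1 window held CACGTG 202 bases upstream of its start.
The Acsbg1 window was poor in CpG dinucleotides, the sites of DNA methylation, with 1 CpG and a GC content of 48.4%. Of all windows, 7.87% held fewer, and the median was 6. Counting for each gene the window nearest its annotated start, Acsl3, Acsl4, Acsl1 and Cpt1a held 28, 25, 20 and 14 CpGs, Slc27a1 and Slc27a4 held 8 each, Acsl5 held 7, and Acsl6 and Cd36 held 3 each. The only Cd36 window lay 53063 bases from the annotated start, while the nearest windows of the other genes lay within 56 bases. The further windows of Acsl6 held 30 and 1, those of Slc27a1 held 12 and 10, and that of Acsl1 held 2. These are descriptions of letters, with no measurement of methylation or binding.

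The Acsbg1 FPKM were 0.319 and 0.200 in the replicates of B16-F1, 61.9 and 60.3 in the B16-F1R2 replicates, and 58.2 and 55.2 in the B16-F1R2L replicates. Both B16-F1 libraries were far below all 4 libraries of the metastatic lines, and the latter lay close together. In estimated reads these were 12 and 7 for the parental line, 2354 and 2447 for its lymph node variant, and 2195 and 2290 for B16-F1R2L, with 1 read worth between 0.0241 and 0.0282 FPKM. Mean FPKM were 0.260 ± 0.084 in the parental line, 61.1 ± 1.17 in B16-F1R2 and 56.7 ± 2.09 in B16-F1R2L (SD, n = 2). The mean in B16-F1R2 was 235 times that in B16-F1, and the mean in B16-F1R2L was 218 times it.
On the log2(FPKM + 0.1) scale, the difference of B16-F1R2 from B16-F1 was 7.43 (SE 0.15) and that of B16-F1R2L was 7.32 (SE 0.15). The B16-F1 level was near the pseudocount, and the first difference was 5.63 with a pseudocount of 1. Both are descriptions, since the same B16-F1 libraries had chosen the gene. Among the 23951 genes, Acsbg1 ranked 11867 by mean FPKM for the parental line, 1642 for B16-F1R2 and 1694 for B16-F1R2L. None of its 3513 stretches of 50 transcript bases occurred in another gene, and no other gene overlapped its exons. Acsbg1 passed the filter of 1 FPKM in at least 2 libraries through the metastatic lines alone.
The libraries of B16-F1R2 (61.9 and 60.3 FPKM) and B16-F1R2L (58.2 and 55.2) did not overlap. B16-F1R2L minus B16-F1R2 was -0.11 on the log2 scale (SE 0.15), which is a description too because the B16-F1R2 libraries had entered the choice. The SE pools the spread of all lines, including the B16-F1 libraries near the pseudocount, and is no measure of the spread of these lines alone. The difference was 0.00049 when FPKM were rescaled to a common sum.

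**Figure D1:**
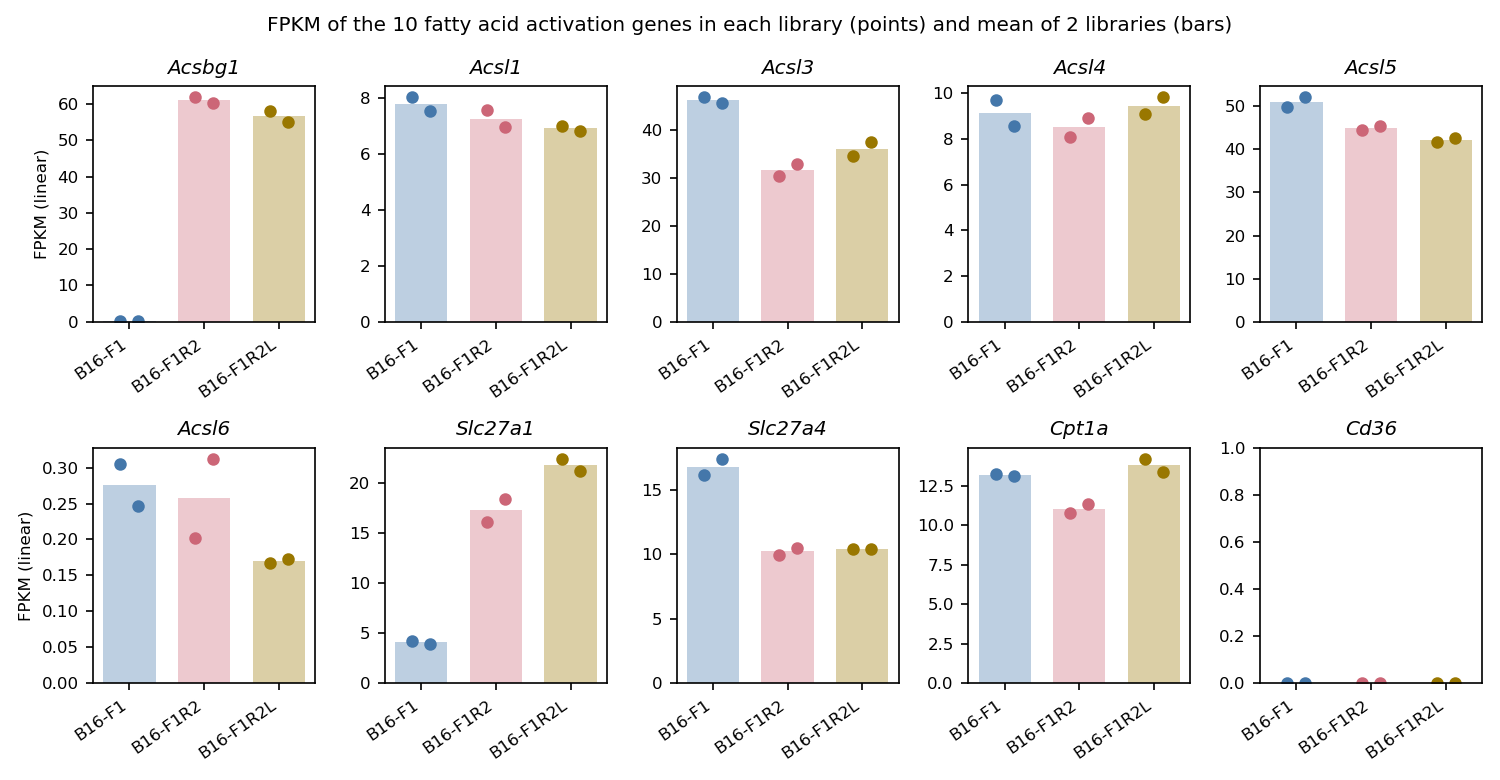
FPKM on linear axes, each with its own scale, for the 10 fatty acid activation genes by line; points are libraries and bars are means of 2 libraries. Acsbg1 and Slc27a1 are low in B16-F1 and high in the other lines, Acsl3 and Slc27a4 are highest in B16-F1, and Cd36 is listed at 0 in all 6 libraries.

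The long-chain synthetases of the ACSL family showed no comparable shift. Acsl5, which serves triglyceride synthesis among other routes, was at 49.7 and 52.1 FPKM in the parental B16-F1 libraries, 44.4 and 45.4 in those of B16-F1R2 and 41.6 and 42.7 in those of B16-F1R2L. The groups did not overlap, and B16-F1 was highest. The log2 difference from B16-F1 was -0.18 (SE 0.045) in B16-F1R2, with no test. In B16-F1R2L it fell by 0.27 (limma adjusted p = 0.0028), a call that was lost when FPKM were rescaled to a common sum (-0.17, adjusted p = 0.0517).
Acsl3, a synthetase of the endoplasmic reticulum and lipid droplets, was at 46.9 and 45.6 FPKM in the replicates of B16-F1, 30.5 and 33.0 in the B16-F1R2 replicates, and 34.6 and 37.5 in the B16-F1R2L replicates. Both metastatic lines were below B16-F1 in every library. The log2 difference was -0.54 (SE 0.061) in B16-F1R2, and Acsl3 fell by 0.36 in B16-F1R2L (adjusted p = 0.0031). Of its 3277 transcript stretches, 158 (4.82%) were shared with Utp14b, a gene that overlaps its exons and was listed at 4.88 to 7.28 FPKM, so a small part of the reads may be assigned to either gene.
Acsl1, the synthetase that predominates in liver, fat and heart, was at 8.01 and 7.52 FPKM in the parental B16-F1 libraries, 7.54 and 6.95 in those of B16-F1R2 and 6.99 and 6.80 in those of B16-F1R2L. B16-F1 and B16-F1R2 overlapped, with a log2 difference of -0.10 (SE 0.077). B16-F1R2L minus B16-F1 was -0.17 (95% CI -0.35 to 0.017, adjusted p = 0.11), and this became a call under quantile normalization (-0.30, adjusted p = 0.0181).
Acsl4, which prefers arachidonic acid and shapes the polyunsaturated lipids of membranes, was at 9.73 and 8.56 FPKM in the replicates of B16-F1, 8.09 and 8.92 in the B16-F1R2 replicates, and 9.10 and 9.83 in the B16-F1R2L replicates. B16-F1 overlapped both other lines, and B16-F1R2 lay below B16-F1R2L. The log2 difference of B16-F1R2 from B16-F1 was -0.10 (SE 0.093). B16-F1R2L minus B16-F1 was 0.05 (95% CI -0.17 to 0.27, adjusted p = 0.66), and it turned to -0.041 without the second B16-F1 library and to -0.0049 without the second B16-F1R2L library.
Acsl6, the synthetase of neurons, was at 0.304 and 0.247 FPKM in the parental B16-F1 libraries, 0.202 and 0.312 in those of B16-F1R2 and 0.167 and 0.173 in those of B16-F1R2L. These values correspond to an estimated 13 to 26 reads per library, and the gene was below the filter of 1 FPKM in at least 2 libraries and was not tested.

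The summed FPKM of Acsbg1 and the 5 ACSL genes was 114.6 ± 0.55 in the parental line, 153.8 ± 1.54 in B16-F1R2 and 151.4 ± 1.11 in B16-F1R2L (SD, n = 2). Without Acsbg1 the sum was 114.4 ± 0.47, 92.7 ± 2.71 and 94.7 ± 3.20 in the same order. The direction of the summed difference between B16-F1 and the metastatic lines thus depended on Acsbg1. Acsbg1 made up 0.278% and 0.175% of the B16-F1 sums, 40.6% and 38.9% of the B16-F1R2 sums, and 38.6% and 36.3% of the B16-F1R2L sums. The share of Acsl3 was 40.8% and 39.9% in the parental line and 20.0% and 21.3% in B16-F1R2, and that of Acsl5 was 43.3% and 45.6% against 29.1% and 29.3%. A sum of FPKM is a sum of transcript levels and not of enzyme activity.

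**Figure D2:**
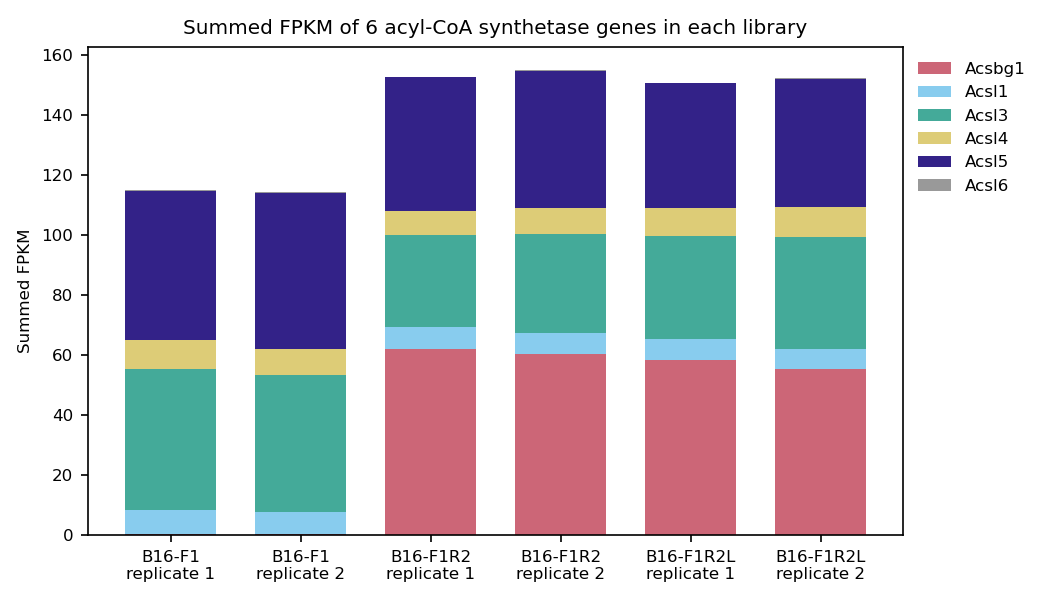
Summed FPKM of the 6 acyl-CoA synthetase genes in each of 6 libraries, stacked by gene from 0. Acsbg1 is barely visible in both B16-F1 libraries and forms 36.3% to 40.6% of the stack in the other 4, where the Acsl3 and Acsl5 parts are smaller than in B16-F1.

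Among the fatty acid transport proteins, Slc27a1 and Slc27a4 changed places in the order of levels. Slc27a1, a transporter with acyl-CoA synthetase activity known from muscle and fat, was at 4.27 and 3.94 FPKM in the replicates of B16-F1, 16.1 and 18.5 in the B16-F1R2 replicates, and 22.5 and 21.2 in the B16-F1R2L replicates. The 3 lines did not overlap, with B16-F1 lowest and B16-F1R2L highest. Its mean in B16-F1R2 was 4.21 times that in B16-F1, a log2 difference of 2.05 (SE 0.086) given without a test. In B16-F1R2L it rose to 5.32 times the B16-F1 level, by 2.38 on the log2 scale (95% CI 2.18 to 2.59, limma adjusted p = 5.15e-06). Both comparisons use the same B16-F1 libraries.
Slc27a4, the member of this family needed for the skin barrier, was at 16.2 and 17.4 FPKM in the parental B16-F1 libraries, 9.97 and 10.5 in those of B16-F1R2 and 10.4 and 10.4 in those of B16-F1R2L. B16-F1 was above both metastatic lines. The log2 difference was -0.71 (SE 0.064) in B16-F1R2, and Slc27a4 fell by 0.68 in B16-F1R2L (adjusted p = 2.4e-04). The FPKM ratio of Slc27a4 to Slc27a1 was 3.78 and 4.42 in the replicates of B16-F1, 0.618 and 0.567 in the B16-F1R2 replicates, and 0.463 and 0.490 in the B16-F1R2L replicates.
Of the 2746 stretches of 50 bases in the Slc27a1 transcript, 24 (0.874%) occurred in other genes. Slc27a1 (ENSMUSG00000031808.6) is on the plus strand of chr8:74092826-74110607, and Slc27a4 on chr2:29658154-29673042.

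Cpt1a, the mitochondrial carnitine palmitoyltransferase that commits acyl-CoA to oxidation, was lowest in B16-F1R2. Its FPKM were 13.3 and 13.1 in the parental B16-F1 libraries, 10.8 and 11.3 in those of B16-F1R2 and 14.2 and 13.4 in those of B16-F1R2L. B16-F1R2 minus B16-F1 was -0.25 (SE 0.061), and B16-F1R2L minus B16-F1 was 0.07 (95% CI -0.081 to 0.21, adjusted p = 0.39). Cd36 was listed at 0 in every library, so no test was made, while genes that every cell uses, such as Hprt and Tbp, were not at 0.

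In the parental line the order of mean FPKM was Acsl5, Acsl3, Slc27a4, Cpt1a, Acsl4, Acsl1 and Slc27a1, followed by Acsl6 and Acsbg1, whose libraries overlapped. In B16-F1R2 and B16-F1R2L it was Acsbg1, Acsl5, Acsl3, Slc27a1, Cpt1a, Slc27a4, Acsl4, Acsl1 and Acsl6, with no overlap between neighbours. Acsbg1 was thus among the lowest detected genes of the set in one line and the highest in the others.

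As a description of the set, 8 genes passed the filter, and the fit over all genes placed 2 of them past its threshold as higher in B16-F1R2 (Acsbg1 and Slc27a1) and 4 as lower (Acsl3, Acsl5, Slc27a4 and Cpt1a). Over all 11379 tested genes, 28.2% were called higher and 27.2% lower in this comparison. Nothing is read from the count of the 8, and it is no test of them, because the set was chosen on this comparison. Without the second B16-F1 or the first B16-F1R2 library, the lower count was 2. The median log2 difference of the 8 was -0.14, against 0.0046 over all tested genes.
In B16-F1R2L against B16-F1, 2 of the 8 were called higher and 3 lower, where 29.5% and 27.1% of all tested genes were called. Acsbg1 is one of the 2 and carries no weight as a test. The median of the 8 was -0.06, against 0.017 over all.
In B16-F1R2L against B16-F1R2, a contrast that the choice did not use although its B16-F1R2 libraries entered the choice of Acsbg1, 2 of the 8 were called higher, Cpt1a and Slc27a1, and 0 lower by limma, with 12.1% of all genes called higher and 10.5% lower. At an unadjusted p under 0.05, 3 were higher and 0 lower. Cpt1a rose by 0.32 on the log2 scale (95% CI 0.17 to 0.47, adjusted p = 0.018), or 1.25 times. The call was lost without the first B16-F1R2 library (0.28, adjusted p = 0.0929) and without either B16-F1R2L library (0.28 and 0.36, adjusted p = 0.0557 and 0.0552).
Slc27a1 rose by 0.34 (95% CI 0.13 to 0.54, adjusted p = 0.038), or 1.26 times. That call was lost under 9 of 16 alternatives, with adjusted p from 0.027 to 0.165 over them and 0.34 falling to 0.24 without the first B16-F1R2 library. It was also lost without either B16-F1R2L library (0.30 and 0.38, adjusted p = 0.124 and 0.104) and, with the difference unmoved, without either B16-F1 library (adjusted p = 0.0623 and 0.0613).
The other 5 genes beside Acsbg1 were not called in this comparison. Acsl3 was at 0.18, and its 95% CI of 0.035 to 0.33 did not include 0 (adjusted p = 0.078, and 0.0481 when FPKM were rescaled). Acsl4 was at 0.15 (95% CI -0.071 to 0.38, adjusted p = 0.27) and Acsl5 at -0.09 (-0.20 to 0.018, adjusted p = 0.19). Acsl1 was at -0.07 (-0.25 to 0.12, adjusted p = 0.54) and Slc27a4 at 0.03 (-0.13 to 0.18, adjusted p = 0.80). The Slc27a4 value turned to -0.0086 without the first B16-F1R2 library.

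**Figure D3:**
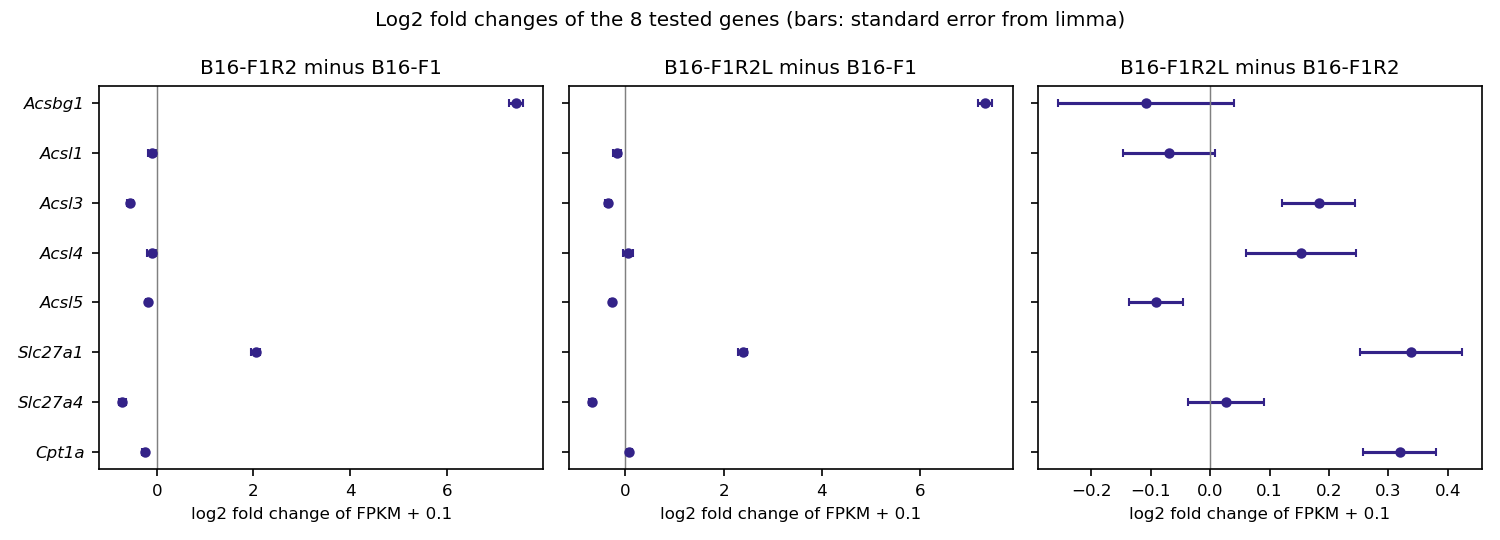
Log2 fold changes of FPKM + 0.1 for the 8 tested genes in the 3 comparisons of lines, with limma standard errors as bars; the right panel has a much narrower axis than the others. Against B16-F1, Acsbg1 and Slc27a1 stand to the right at 7.43 and 2.05 in B16-F1R2, while between the metastatic lines all values lie between -0.11 and 0.34.

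The wider fatty acid pathway was described with 9 gene lists holding 116 genes, of which 85 passed the filter and 15 were listed at 0 in all libraries. In B16-F1R2 against B16-F1, 16 rose and 40 fell, where 28.2% and 27.2% of all tested genes did, and the median was -0.16 against 0.0046. In B16-F1R2L against B16-F1, 20 rose and 31 fell, and in B16-F1R2L against B16-F1R2, 13 rose and 4 fell. For these the shares of all tested genes are those given above, and the first 2 comparisons share the B16-F1 libraries. Acss1, Acot11, Lpin3 and Dgat2, 4 of the genes counted as higher, were under 1 FPKM in both B16-F1 libraries and passed the filter through the metastatic lines alone, which fixed their direction, so their values are given without a test. Of the 17 calls between the metastatic lines, 1 held in all alternatives in which the gene was tested, that of Acot2, while 41 of the 56 calls in B16-F1R2 against B16-F1 did.

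Among other acyl-CoA synthetases, 2 of 7 tested rose, counting Acss1 without a test, and 3 fell in B16-F1R2 against B16-F1. Slc27a6, a further transport protein with synthetase homology, was at 6.88 and 5.40 FPKM in the replicates of B16-F1, 23.9 and 23.2 in the B16-F1R2 replicates, and 27.6 and 29.2 in the B16-F1R2L replicates. It rose by 1.93 in B16-F1R2 (SE 0.11, limma adjusted p = 3.4e-05). Slc27a1, Slc27a3, Slc27a4 and Slc27a6 together summed to 29.3 and 28.9 FPKM in the parental line, to 51.1 and 53.4 in B16-F1R2, and to 62.1 in each B16-F1R2L library. Slc27a4 held 55.2% and 60.3% of that sum in B16-F1, whereas Slc27a6 held 46.7% and 43.4% in B16-F1R2.
Acss1, which activates acetate in mitochondria, had parental FPKM of 0.908 and 0.771 and B16-F1R2 values of 2.07 and 2.11, a log2 difference of 1.23. Acsf2, a medium-chain synthetase, fell by 0.83 (adjusted p = 4.2e-04), and Aacs, which activates acetoacetate, fell by 0.75 (adjusted p = 1.7e-04).

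Among thioesterases, which hydrolyse acyl-CoA back to the free acid, 2 of 9 rose and 2 fell, with 1 lower when the second B16-F1 or the first B16-F1R2 library was left out. Acot13 rose by 0.51 (adjusted p = 0.0014), and Acot1 fell by 0.56 (adjusted p = 0.0048). Acot11, counted without a test among the 2 that rose, had parental FPKM of 0.264 and 0.249 and B16-F1R2 values of 0.920 and 0.758. Its log2 difference was 1.39, whose direction turned under quantile normalization (-0.32). Acot6 was at -0.63 and was not called (adjusted p = 0.061). Acot2, the mitochondrial thioesterase, was at 4.34 and 4.85 FPKM in the parental B16-F1 libraries, 4.70 and 3.99 in those of B16-F1R2 and 8.68 and 10.7 in those of B16-F1R2L; it was named after its values were seen and rose by 1.13 in B16-F1R2L against B16-F1R2 (adjusted p = 0.0057).

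Of the fatty acid and acyl-CoA binding proteins, 3 of 8 rose and 2 fell, with 1 lower without either B16-F1 library or without the second B16-F1R2 library. Fabp3, the carrier of heart and muscle, was at 1.36 and 1.05 FPKM in the replicates of B16-F1, 29.3 and 28.9 in the B16-F1R2 replicates, and 20.3 and 14.6 in the B16-F1R2L replicates. It rose by 4.50 in B16-F1R2 (SE 0.17, adjusted p = 7.2e-06). Fabp5, the epidermal carrier, was much more abundant, with 525 and 503 FPKM in the parental B16-F1 libraries, 898 and 854 in those of B16-F1R2 and 1098 and 1107 in those of B16-F1R2L, and it rose by 0.77 (adjusted p = 6e-05). Dbi, the acyl-CoA binding protein, rose by 0.26 (adjusted p = 0.013) but was not called under quantile normalization (0.10, adjusted p = 0.23) or without the second B16-F1 library (0.21, adjusted p = 0.134), and Acbd3 fell by 0.43 (adjusted p = 0.0059).

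In the carnitine shuttle and its malonyl-CoA control, 1 of 8 rose and 5 fell, and the latter became 3 without either B16-F1 library or without the first B16-F1R2 library. Cpt1c, the brain form of CPT1, was at 7.93 and 6.32 FPKM in the replicates of B16-F1, 2.18 and 2.07 in the B16-F1R2 replicates, and 3.08 and 2.49 in the B16-F1R2L replicates, and it fell by 1.69 in B16-F1R2 (SE 0.15, adjusted p = 2.0e-04). Acacb, whose malonyl-CoA inhibits CPT1, rose by 0.77 (adjusted p = 0.0016). Mlycd, which removes malonyl-CoA, fell by 0.54 (adjusted p = 3.4e-04), and Crot, the peroxisomal carnitine octanoyltransferase, fell by 0.53 (adjusted p = 5.8e-04).

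Mitochondrial beta-oxidation had 2 of 15 genes higher and 7 lower. The 7 became 4 without the first and 2 without the second B16-F1 library, 2 without the second B16-F1R2 library, and 4 without a trend in eBayes. The 2 became 1 without either B16-F1 library, without the first B16-F1R2 library and without the trend. Hadhb, the thiolase subunit of the trifunctional protein, rose by 0.62 (adjusted p = 1.0e-04). The acyl-CoA dehydrogenases Acadl and Acadm fell by 0.39 (adjusted p = 9.7e-04) and 0.36 (adjusted p = 0.0037). Eci1, an isomerase for unsaturated chains, fell by 0.40 (adjusted p = 0.026), a call lost without the second library of B16-F1 (-0.28, adjusted p = 0.143) or of B16-F1R2 (-0.26, adjusted p = 0.13), and, with its size unmoved, without a filter (adjusted p = 0.0597) or a trend (adjusted p = 0.0551).
In peroxisomal beta-oxidation 0 of 8 rose by limma, likewise 0 at an unadjusted p under 0.05, and 4 fell. Among them were the thiolase Acaa1a, which fell by 0.59 (adjusted p = 3.9e-04), and the transporter Abcd3, which fell by 0.48 (adjusted p = 4.4e-04). Acox3 was at -0.35 and was not called (adjusted p = 0.090).

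Desaturation and elongation had 1 of 9 genes higher and 7 lower. Elovl1, an elongase of saturated chains, fell by 0.85 (adjusted p = 2.7e-05), Elovl7 by 0.47 (adjusted p = 0.0063) and the desaturase Scd1 by 0.38 (adjusted p = 5.7e-04). Elovl4, which makes very long chains, rose by 0.80 (adjusted p = 0.0018).
In glycerolipid synthesis and lipolysis, 4 of 17 rose, counting Lpin3 and Dgat2 without a test, and 8 fell. Mgll, the monoacylglycerol lipase, was at 26.4 and 28.1 FPKM in the parental B16-F1 libraries, 1.65 and 1.17 in those of B16-F1R2 and 2.41 and 2.90 in those of B16-F1R2L, and it fell by 4.20 in B16-F1R2 (SE 0.17, adjusted p = 7.9e-06). Of the phosphatidate phosphatases, Lpin3 had parental FPKM of 0.158 and 0.189 and B16-F1R2 values of 2.55 and 2.00, a log2 difference of 3.11. Lpin1 fell by 1.01 (adjusted p = 5.0e-04). Dgat2, which completes triglycerides, had parental FPKM of 0.716 and 0.797 and B16-F1R2 values of 2.78 and 1.91, a log2 difference of 1.49.
Of the PPAR regulators, which control many genes of fatty acid use, 1 of 4 rose and 2 fell. Ppargc1a rose by 1.24 (adjusted p = 9.5e-05), Ppard fell by 1.15 (adjusted p = 1.4e-05) and Rxra fell by 0.44 (adjusted p = 3.6e-04). Ppargc1b was at 0.04 and was not called (adjusted p = 0.80).

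**Figure D4:**
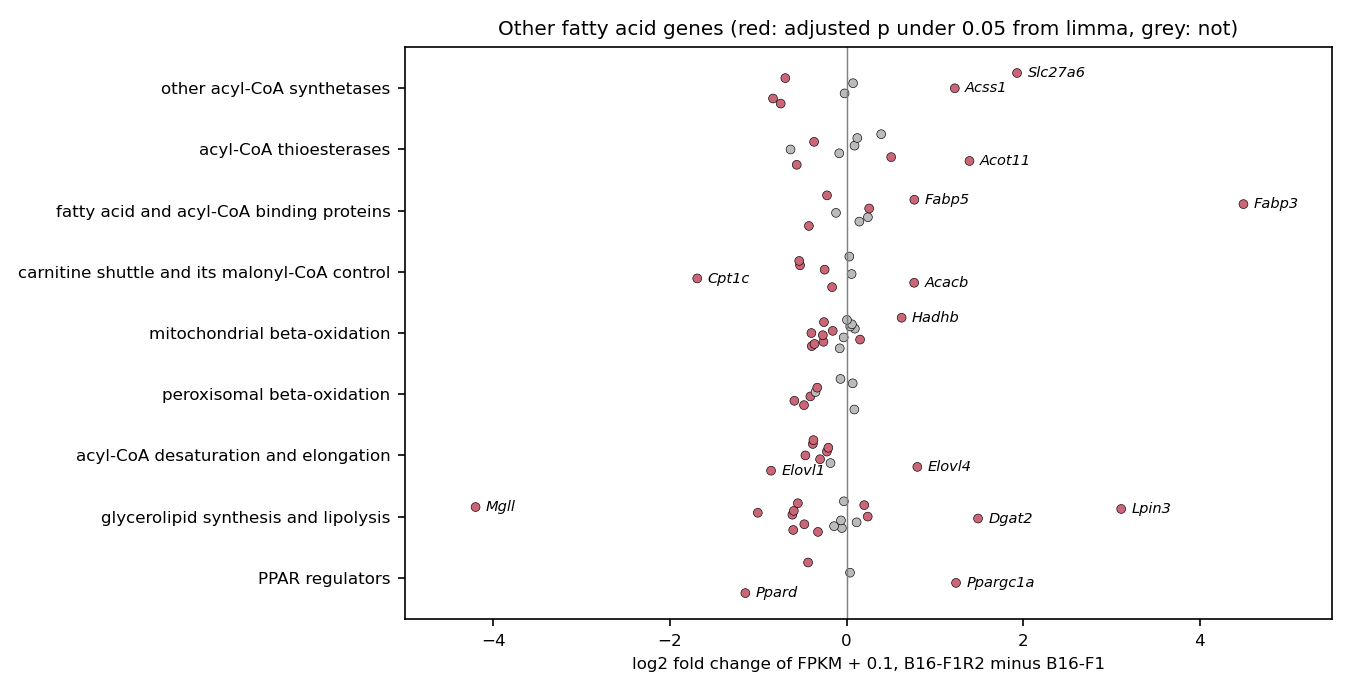
Log2 fold changes of FPKM + 0.1 in B16-F1R2 minus B16-F1 for the 85 tested genes of the 9 lists, 1 point per gene; red points had a limma adjusted p under 0.05. Fabp3 at 4.50 and Lpin3 at 3.11 lie farthest right and Mgll at -4.20 farthest left, and most other points lie close to 0.

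The genes with profiles most like that of Acsbg1 were found by Euclidean distance between log2 values centred on each gene's mean over the 6 libraries, among 11371 genes. The nearest were Slc12a8 (distance 0.357), As3mt (0.441), Defb25 (0.490) and Cyct (0.602). As3mt, Defb25 and Cyct had an FPKM of 0 in each parental library. Slc12a8, a solute carrier, was at 0.0267 and 0 FPKM in the replicates of B16-F1, 16.1 and 17.1 in the B16-F1R2 replicates, and 19.8 and 18.8 in the B16-F1R2L replicates. Slc27a1 was at a distance of 5.99 with 453 genes nearer, and the other tested genes of the set had 6041 or more genes nearer. With a parental FPKM at or near 0, the fold of these genes, and so their closeness to Acsbg1, is set in part by the pseudocount of 0.1, and with only 6 libraries the order is a description.

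The chromosomal neighbours of Acsbg1 differed less than it did. The 10 tested genes next to it, 5 on each side between 53388627 and 54896351 of chromosome 9, had a median log2 difference of 0.29 in B16-F1R2 against B16-F1 and ranged from -0.11 to 1.73. Of them, 6 were called higher and 0 lower by limma, the same numbers as at an unadjusted p under 0.05, where 28.2% of all tested genes were called higher and 27.2% lower. Chrnb4, a nicotinic receptor subunit, was highest at 1.73, with parental FPKM of 0.397 and 0.264 and B16-F1R2 values of 1.41 and 1.22, so that it too passed the filter through the metastatic lines alone. Cib2, a calcium-binding protein gene, followed at 1.13 (limma adjusted p = 0.0049), with parental FPKM of 2.73 and 2.66 and B16-F1R2 values of 7.58 and 4.77. The adjacent genes Idh3a and Wdr61 were at 0.54 and 0.31.

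Astrocytes are among the cells in which Acsbg1 is known. The summed FPKM of 4 astrocyte markers ranged from 12.2 to 14.5 for the parental line, from 34.3 to 34.4 for B16-F1R2 and from 42.0 to 43.0 for B16-F1R2L. Gfap accounted for most of the difference, with 0.559 and 0.757 FPKM in the parental B16-F1 libraries, 18.8 and 17.5 in those of B16-F1R2 and 25.5 and 25.4 in those of B16-F1R2L. Gfap passed the filter through the metastatic lines alone. Aldh1l1 had parental FPKM of 11.6 and 13.7 and rose by 0.32 in B16-F1R2 (adjusted p = 0.025) and by 0.38 in B16-F1R2L (adjusted p = 0.012). Aqp4 had parental FPKM of 0.0499 and 0.0645, B16-F1R2 values of 0.469 and 0.442 and B16-F1R2L values of 0.575 and 0.633, and was below the filter and not tested. The glutamate transporter Slc1a2 reached no more than 0.0375.
The 6 fibroblast markers summed to between 0.962 and 1.19 FPKM for the parental line, to 18.1 and 18.3 for its lymph node variant, and to 4.50 and 4.67 for B16-F1R2L, while Dcn and Lum were listed at 0. For Col1a1 alone the B16-F1R2 libraries gave 16.8 and 17.1 FPKM, and those of B16-F1R2L gave 2.81 and 2.19. The 6 leukocyte markers summed to 0.170 to 0.684, 13.6 to 13.7 and 17.6 to 19.2, mostly Cd79a in the metastatic lines, while Ptprc and Cd3e were listed at 0. Of the 4 endothelial markers, Pecam1 was listed at 0 in both parental libraries, with B16-F1R2 values of 0.758 and 0.752 FPKM and B16-F1R2L values of 1.09 and 1.26, while Cdh5, Kdr and Tek were listed at 0 in all libraries. Epithelial sums reached no more than 0.662 FPKM and adipocyte sums no more than 0.419. The part of these markers in the Acsbg1 difference was not tested.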

How the data were processed

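Polyadenylated RNA of 6 libraries, 2 per line, was sequenced with a stranded kit in single-end reads of 50 bases. The authors aligned them with TopHat2 2.0.10, Bowtie 1.0.0 and SAMtools 0.1.1.9 to NCBI37/mm9, with 2 mismatches and 20 multihits allowed. Deposited values are FPKM, made by the authors without pooling replicates; Cuffnorm is named in the submitters' processing notes without a role, and the annotation is not given in the sources used here. The authors' DESeq2 test needs counts and was not used here.

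Lines were compared on log2(FPKM + 0.1) with limma 3.58.1 (R 4.3.3, eBayes with a trend) over all 6 libraries, for the 11379 genes reaching 1 FPKM in 2 or more libraries, with Benjamini-Hochberg adjustment at 0.05. This scale understates changes of low genes. An exact permutation test of 2 against 2 libraries cannot give a two-sided p below 0.333. Depth was estimated from FPKM values taken as single reads within a preset range of depth, an approximation that covers counting only. Scripts were tested on simulated data. The 10 genes and the lists were chosen with earlier results of these data known. Named were all 10 genes, up to 4 tested genes per list by size of the difference of B16-F1R2 from B16-F1, 5 nearest profiles and 5 neighbours on each side. Of the genes so named, 2 are not reported here. Positions came from the NCBIM37 annotation. Python 3.11.15, pandas 2.3.3, numpy 2.4.6, scipy 1.17.1 and matplotlib 3.10.9 were used. Alternatives were other pseudocounts, filters and scalings, only the 4 libraries compared, no trend in eBayes, each library left out in turn, a replicate block and a minimum log2 difference of 1.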

Additional observations from a re-analysis of the deposited data

How the results depend on the processing

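A minimum log2 fold change of 1 left 819 higher and 328 lower genes of all tested in B16-F1R2 against B16-F1, 957 and 259 in B16-F1R2L against B16-F1, and 116 and 24 in B16-F1R2L against B16-F1R2. Of the fatty acid activation genes it left 0 lower in the first 2 comparisons and 0 higher in the third, and of the other pathway genes 7 and 4, 10 and 2, and 1 and 0. Rescaling to a sum of 1000000 moved the median of all genes to 0.118 in B16-F1R2L against B16-F1 and to 0.129 against B16-F1R2, and gave 2043 lower in the former and 2079 higher and 489 lower in the latter, with 20 pathway genes lower, and 25 higher and 1 lower. Only the 4 libraries compared gave 874 and 644 calls in B16-F1R2L against B16-F1R2, with 1 activation gene higher and 8 and 2 pathway genes. Without a filter that comparison had 743 lower genes, 1 activation gene higher and 1 pathway gene lower, and without a trend 650, 1 and 2. Leaving out 1 library gave 297 to 904 higher and 140 to 991 lower genes there, 0 to 2 activation genes higher, and 3 to 10 pathway genes higher and 0 to 2 lower; the lower activation genes in B16-F1R2 against B16-F1 ranged from 2 to 4.

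No label pairs the libraries by replicate number. Deviations of same-numbered libraries correlated at 0.0519, -0.102 and 0.0789 across genes. These values cannot show whether same-numbered libraries shared a culture or a batch. A replicate block left 1 activation gene called higher in B16-F1R2L against B16-F1R2, and 1217 higher and 1104 lower of all genes.

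Among the activation genes, directions turned for differences near 0. Of the called pathway genes 1 turned, Acot11 in B16-F1R2 against B16-F1, from 1.39 to -0.32 under quantile normalization. Acsl4 in B16-F1R2L against B16-F1 was -0.047 under quantile normalization and ranged from -0.041 without the second B16-F1 library to 0.14 without the first, with -0.0049 without the second B16-F1R2L library. In B16-F1R2L against B16-F1R2, rescaling gave 0.00049 for Acsbg1, 0.038 for Acsl1 and 0.018 for Acsl5, and Slc27a4 was -0.042 under quantile normalization and ranged from -0.0086 to 0.061 without the first or the second B16-F1R2 library. Acsl3 was called there under rescaling (adjusted p = 0.0481). The cause of these changes was not tested. All other counts over all tested genes, over the activation genes and over all pathway genes stayed within 1.5 times. Counts of single pathway lists in B16-F1R2 against B16-F1 that moved by more when a library or the trend was left out are given with each list. A filter at 5 FPKM, which tests fewer genes, left 1 other synthetase, 1 thioesterase, 0 carnitine shuttle genes and 2 glycerolipid genes higher. A minimum log2 fold change of 1 left 0 genes in either direction in mitochondrial and peroxisomal beta-oxidation and in desaturation and elongation. It left 2 higher and 0 lower other synthetases, 1 and 0 thioesterases, 1 and 0 binding proteins, 0 and 1 carnitine shuttle genes, 2 and 2 glycerolipid genes, and 1 and 1 PPAR regulators. Acss1, Acot11, Lpin3 and Dgat2, which passed the filter through the metastatic lines alone, are among those counted as higher.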
